A study of Mus musculus with 26 samples.

Results

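The genes described here are 10 genes of the amino acid response driven by the transcription factor ATF4 (Asns, Atf4, Ddit3, Trib3, Psat1, Phgdh, Shmt2, Mthfd2, Slc7a5 and Slc3a2), of 24848 genes listed in each deposited table. They were chosen by name, in part because Asns was higher in conventional T cells of the inflamed central nervous system of knockout mice than in those of control mice, so that comparison is given as a description without a test. All 10 were present in the tables and passed the filter on low counts. Bulk RNA sequencing was done on 26 samples of CD4 T cells of C57BL/6 mice with EAE (experimental autoimmune encephalomyelitis), taken at day 14. EAE models multiple sclerosis: T cells primed against myelin enter the central nervous system (CNS). Regulatory T cells (Treg, CD4+Foxp3+) and conventional T cells (Tconv, CD4+Foxp3-) came from the CNS or from the draining lymph nodes (dLN). The icKO mice were Foxp3Cre-ERT2 x Tnfrsf1bFlox/Flox and the Ctrl mice were Foxp3Cre-ERT2. Tnfrsf1b encodes the TNF receptor TNFR2. In both genotypes active EAE was induced, and tamoxifen, which activates the Cre, was given between days 7 and 14, so the Cre driver and tamoxifen are common to all groups. Because the Cre is driven by the Foxp3 locus, the deletion is directed at Treg, and Tconv of icKO mice carry undeleted floxed alleles by design. Groups were Treg CNS icKO, Treg CNS Ctrl, Treg dLN icKO, Treg dLN Ctrl, Tconv dLN icKO and Tconv dLN Ctrl with 3 samples each, and Tconv CNS icKO and Tconv CNS Ctrl with 4 each.

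When a cell lacks amino acids or meets another stress, kinases phosphorylate the translation factor eIF2, general translation slows and the messenger RNA of Atf4 is translated more. ATF4 then binds composite C/EBP-ATF elements and raises transcription of amino acid transporters, synthesis enzymes and further regulators. Activated T cells use the same genes to feed growth, so several of them also follow mTORC1 and MYC activity. Because ATF4 is regulated largely at translation, its messenger RNA is not a measure of its protein.

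The members have 4 kinds of role. Atf4 encodes the transcription factor itself, Ddit3 the stress-induced factor CHOP, and Trib3 a pseudokinase that restrains ATF4 and AKT signalling. Asns encodes asparagine synthetase. Slc7a5 (LAT1) and Slc3a2 (CD98 heavy chain) form the heterodimer that imports large neutral amino acids, and Slc3a2 also pairs with other light chains. Phgdh and Psat1 catalyse successive steps of serine synthesis, and Shmt2 and Mthfd2 pass the serine carbon into mitochondrial folate metabolism.

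In the mm10 assembly Asns lies on the minus strand at chr6:7675169-7693254, Trib3 on the minus strand at chr2:152337422-152344032 and Phgdh on the minus strand at chr3:98313170-98339990. Atf4 is at chr15:80255184-80257541 on the plus strand, and Psat1 at chr19:15904678-15947337, Shmt2 at chr10:127517123-127522444, Mthfd2 at chr6:83305691-83325908, Slc7a5 at chr8:121881150-121907694 and Slc3a2 at chr19:8706882-8723369 on the minus strand. Ddit3 is on chromosome 10 on the plus strand. The 250 bases upstream of the RefSeq start were read for 9 members, of which Psat1 had a pair of starts, from the RefSeq promoter table of build GRCm38.p6, the assembly that mm10 names. Slc7a5 had no entry. The letters TGATGNAA, a form of the composite C/EBP-ATF element, were searched on both strands and occurred upstream of 1 of the 9, Asns, against 3.45% of the 32841 mouse promoters in that table. The copy ran from base -23 to base -16 before the RefSeq start, which places it inside the longer GENCODE gene model. The E-box CACGTG (6.02% of promoters), the CRE TGACGTCA (1.55%) and the ER stress element known as ERSE (0.113%) occurred in 0 of the 9. These are matches of letters in a window and describe no binding. Asns is shown for its match, in capitals, and Trib3 and Phgdh as members that moved in opposite directions between tissues and hold no match. For Trib3 and Phgdh the part upstream of the GENCODE gene model is shown. All 3 are written 5′ to 3′ on the gene's own strand.
Asns, chr6:7693214-7693243: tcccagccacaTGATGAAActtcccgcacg
Trib3, chr2:152344061-152344310: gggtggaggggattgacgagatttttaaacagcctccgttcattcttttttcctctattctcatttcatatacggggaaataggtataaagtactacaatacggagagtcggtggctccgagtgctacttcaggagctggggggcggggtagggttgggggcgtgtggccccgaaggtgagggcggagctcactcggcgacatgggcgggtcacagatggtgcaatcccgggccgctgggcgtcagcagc
Phgdh, chr3:98339991-98340219: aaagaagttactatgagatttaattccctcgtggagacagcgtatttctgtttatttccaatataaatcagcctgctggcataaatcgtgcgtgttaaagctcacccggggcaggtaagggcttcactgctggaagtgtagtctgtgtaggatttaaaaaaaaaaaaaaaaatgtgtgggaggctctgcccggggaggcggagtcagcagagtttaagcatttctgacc

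In 25 of the libraries the total expected count was 12.4 to 18.5 M, with 11089 to 14259 genes above 0. The remaining library, labelled Tconv dLN icKO replicate 3, had 7.78 M counts and 6005 genes above 0. Its highest rank correlation with another library was 0.700, against 0.944 or more for the 25. In it Asns, Atf4, Ddit3 and Trib3 were listed at 0, Mthfd2 had 1 count and Psat1 reached 265 CPM of its own total. Values below therefore rest on the 25 libraries, which leaves 2 in Tconv dLN icKO, and results with all 26 are given beside them. A second doubt concerns Tconv CNS: the deposited file names of 5 of its 8 libraries (icKO 2, 3 and 4, Ctrl 3 and 4) carry the code that the other genotype has elsewhere. Groups follow the labels throughout. For a part of the counts, calls and fold changes that rest on these libraries, values without the 5 are also given, with 1 icKO and 2 Ctrl libraries left. Labels name each replicate as a mouse, and nothing else shows that replicates were independent, so p-values measure the spread between these samples.

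Counts of the targeted gene checked the labels over the whole gene, not over the floxed part alone. Tnfrsf1b was 352 to 510 CPM (counts scaled to library size with TMM factors) in Treg CNS icKO and 454 to 712 CPM in Treg CNS Ctrl, with overlap. In the node it was 618 to 619.8 CPM in Treg icKO and 736 to 857 CPM in Treg Ctrl, with no overlap. In Tconv, not targeted by the Cre, icKO libraries of the CNS ran between 269 and 389.8 CPM of Tnfrsf1b, against 176 to 229 CPM in their Ctrl libraries. Foxp3 was 23.8 to 69.4 CPM over Treg and at most 1.53 CPM over Tconv libraries, and the 5 T cell markers summed to between 3883 and 6910 CPM in every library. Transcripts of other cells were also present. The 10 myeloid and microglial markers, all detected in each group, summed to 3440 to 5573 CPM in CNS Treg, 101.5 to 828 CPM in dLN Treg and 9.42 to 285 CPM in Tconv libraries. The 8 proliferation markers summed to 423.5 to 1072 CPM in CNS Treg and 1588 to 2407 CPM in dLN Treg, against 364.5 to 968 CPM in CNS Tconv and 549 to 766 CPM in dLN Tconv. In bulk samples fewer cells of a type and less RNA per cell cannot be told apart.

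On the length-corrected TPM scale of the authors' tables, the members spanned a wide range over the 25 libraries. Phgdh had the highest median at 139.7 TPM, and Slc3a2 followed at 123.7 TPM. Mthfd2, Shmt2, Atf4 and Psat1 had medians of 88.95, 83.3, 77.8 and 60.0 TPM. Slc7a5 had 54.4, Ddit3 43.4 and Asns 26.5 TPM, and Trib3 was lowest with 8.11 TPM. Neighbours in this order overlapped in their ranges over libraries. By the ratio of the highest to the lowest library Asns varied most, between 3.79 and 64.0 TPM. In TPM itself Phgdh spanned the widest range, between 104 and 350.0 TPM, whereas Shmt2 stayed between 63.1 and 121 TPM.

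**Figure D1:**
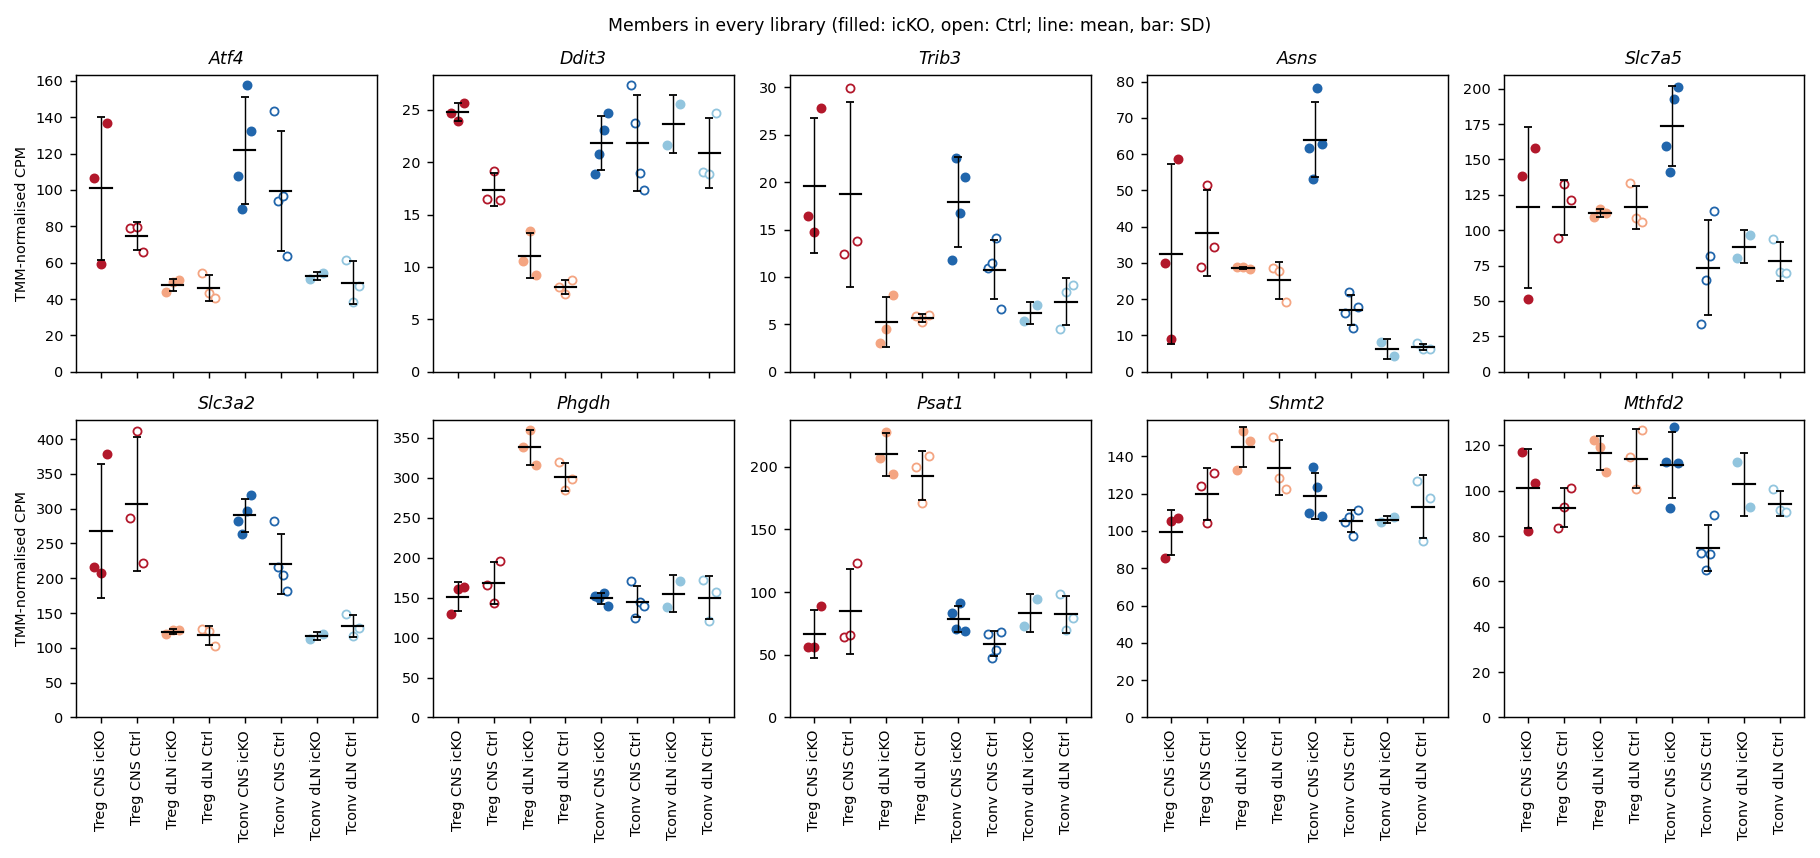
Level of each member in TMM-normalised CPM (vertical axis, from 0) in each of 25 libraries, by group (horizontal axis). Filled points are icKO and open points Ctrl libraries, lines are means and bars SDs. Atf4, Trib3 and Slc3a2 were higher in CNS than in node groups, Phgdh and Psat1 stood highest in dLN Treg, and Asns was above 53 CPM in all 4 Tconv CNS icKO libraries.

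The members did not move as one block between tissues. In Treg, CNS libraries had more Atf4, Ddit3, Trib3 and Slc3a2 than node libraries, and less Psat1, Phgdh and Shmt2. Averaged over both genotypes, 7 of the 10 members were called at an adjusted p below 0.05 (edgeR quasi-likelihood test, adjusted over 13500 genes), 4 higher and 3 lower in the CNS. The comparison called 39.9% of all genes tested. The median log2 fold change was 0.21 over the members and 0.02 over all genes.

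Atf4 had 106, 59.3 and 137 CPM in Treg CNS icKO and 78.8, 79.5 and 65.98 CPM in Treg CNS Ctrl, against 44.03, 49.2 and 50.4 CPM in Treg dLN icKO and 54.1, 43.2 and 40.6 CPM in Treg dLN Ctrl. All 6 CNS libraries lay above all 6 node libraries, and the log2 fold change was 0.89 ± 0.19 (edgeR adjusted p = 0.00098). Ddit3 had 24.7, 23.96 and 25.7 CPM in Treg CNS icKO and 16.5, 19.2 and 16.4 CPM in Treg CNS Ctrl, against 10.6, 13.4 and 9.24 CPM in Treg dLN icKO and 8.11, 7.46 and 8.79 CPM in Treg dLN Ctrl. Its tissues did not overlap either, and it was higher in the CNS by a log2 fold change of 1.13 ± 0.15 (edgeR adjusted p = 5.2e-06). Trib3 showed the largest rise among the members, with 16.4, 14.7 and 27.8 CPM in Treg CNS icKO and 12.4, 29.99 and 13.8 CPM in Treg CNS Ctrl, against 3.04, 4.46 and 8.14 CPM in Treg dLN icKO and 5.86, 5.21 and 5.96 CPM in Treg dLN Ctrl. Its log2 fold change was 1.81 ± 0.29 (edgeR adjusted p = 5.3e-05), a 3.52-fold difference.

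Of the transporter pair, the heavy chain changed and the light chain did not pass the test. Slc3a2 had 216, 208 and 378 CPM in Treg CNS icKO and 286, 412 and 222 CPM in Treg CNS Ctrl, against 119, 126 and 125 CPM in Treg dLN icKO and 127, 125 and 102 CPM in Treg dLN Ctrl, a log2 fold change of 1.25 ± 0.15 (edgeR adjusted p = 2e-06). The lowest CNS library was above the highest node library. Slc7a5 ranged from 51.6 to 158 (median 127) CPM in CNS Treg and from 106 to 134 (median 111) CPM in dLN Treg, with a log2 fold change of 0.03 ± 0.23 (edgeR adjusted p = 0.95). Asns ranged from 9.12 to 58.5 (median 32.1) CPM in CNS Treg and from 19.2 to 28.96 (median 28.5) CPM in dLN Treg, with a log2 fold change of 0.39 ± 0.28 (edgeR adjusted p = 0.29). Treg CNS icKO replicate 2 was the lowest CNS Treg library for both genes, at 9.12 CPM of Asns and 51.6 CPM of Slc7a5. Without it the log2 fold change of Asns was 0.62 with an edgeR adjusted p of 0.023. Of 25 fits that each left out 1 library, this was the only one that called Asns here.

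The serine synthesis enzymes ran the other way. Psat1 had 55.9, 55.9 and 89.02 CPM in Treg CNS icKO and 64.05, 65.98 and 124 CPM in Treg CNS Ctrl, against 207, 228 and 194 CPM in Treg dLN icKO and 199.6, 171 and 208 CPM in Treg dLN Ctrl, a log2 fold change of -1.42 ± 0.16 (edgeR adjusted p = 9.4e-07). Phgdh had 129.9, 160.4 and 164 CPM in Treg CNS icKO and 166, 143 and 196 CPM in Treg CNS Ctrl, against 339, 359 and 316 CPM in Treg dLN icKO and 320.1, 285 and 298 CPM in Treg dLN Ctrl, a log2 fold change of -0.999 ± 0.10 (edgeR adjusted p = 2.1e-07). For both, every CNS library was below every node library. Of the folate enzymes, Shmt2 was lower by less, with a log2 fold change of -0.35 ± 0.09 (edgeR adjusted p = 0.0048) and overlapping tissues, and Mthfd2 did not pass the test at -0.26 ± 0.10 (edgeR adjusted p = 0.057). Mthfd2 passed without any 1 of 8 libraries (Treg CNS icKO 1, Treg CNS Ctrl 3, Treg dLN icKO 3, Treg dLN Ctrl 2, Tconv CNS Ctrl 4, Tconv dLN icKO 1 or 2, or Tconv dLN Ctrl 1), with adjusted p-values of 0.023 to 0.043. The proliferation markers, which include S phase and mitosis genes, were lower in every CNS Treg library than in every dLN Treg library, as given above, and their part in the lower Psat1, Phgdh and Shmt2 was not tested. The 6 CD8 T and NK cell markers summed to 128.5 to 616 CPM in CNS Treg and 34.2 to 53.4 CPM in dLN Treg, without overlap, and the Treg markers to 642 to 1214 CPM in CNS Treg and 1096 to 1292 CPM in dLN Treg. The part of these and of the myeloid transcripts in the Treg tissue differences was not tested.

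Contrasts within 1 genotype alone were taken in the same model of 25 libraries, so scaling and spread still came from all groups. Within icKO mice alone the called members were the same 7, and 3035 of the 13500 genes were called. Within Ctrl mice alone 2943 of the 13500 genes were called. Among members, the Treg tissue difference was called in Ctrl mice for Ddit3, Trib3, Slc3a2, Psat1 and Phgdh. There Atf4 and Shmt2 had 0.70 ± 0.27 (edgeR adjusted p = 0.07) and -0.16 ± 0.13 (edgeR adjusted p = 0.42). With all 26 libraries the comparison called 17.4% of genes and 4 members, Trib3, Psat1, Phgdh and Slc3a2. The left-out library is not a Treg library, but in the shared model the common dispersion was 0.364 with it and 0.142 without it. Atf4, Ddit3 and Shmt2 then had log2 fold changes of 0.86, 1.10 and -0.38, with adjusted p-values of 0.39, 0.21 and 0.068.

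**Figure D2:**
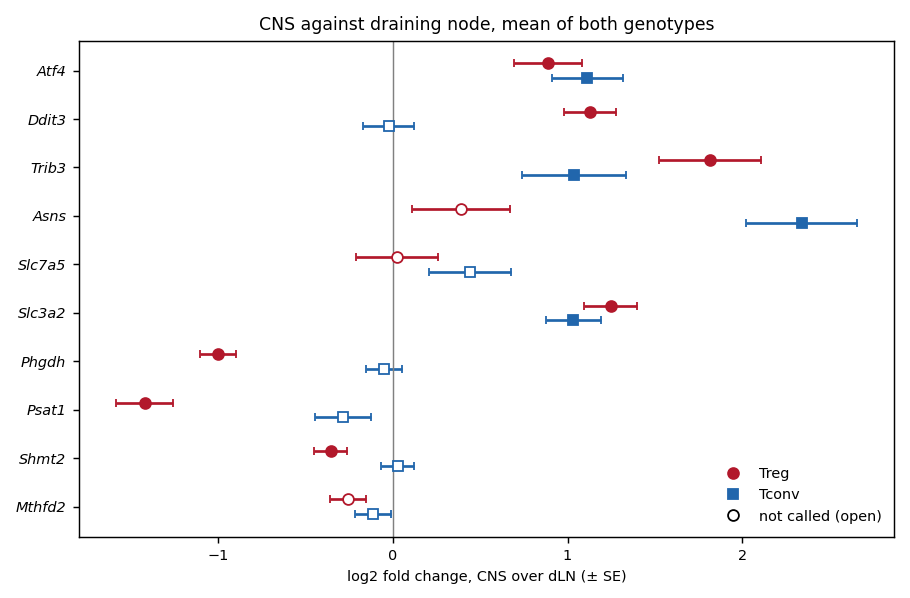
Log2 fold change of each member, CNS over dLN, mean of both genotypes, with SE (horizontal axis), in Treg (circles) and Tconv (squares). Filled symbols passed an adjusted p of 0.05. Atf4, Trib3 and Slc3a2 were to the right of 0 in both cell types, Psat1 and Phgdh were at -1.42 and -0.999 in Treg, and Asns was at 2.34 in Tconv.

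In Tconv, the CNS libraries had more Asns, Atf4, Trib3 and Slc3a2 than the node libraries, and no member passed the test as lower. These 4 of 10 members compare with 25.2% of all genes called, and the median log2 fold change was 0.24 over the members and -0.01 over all genes. Asns had 61.7, 53.2, 78.2 and 62.8 CPM in Tconv CNS icKO and 16.1, 21.9, 12.02 and 17.9 CPM in Tconv CNS Ctrl, against 8.10 and 4.30 CPM in Tconv dLN icKO and 7.90, 6.24 and 6.38 CPM in Tconv dLN Ctrl. All 8 CNS libraries were above all 5 node libraries, with a log2 fold change of 2.34 ± 0.32 (edgeR adjusted p = 1.4e-05). Its choice as a member rests on a comparison of these icKO and Ctrl libraries of the CNS. No test of Asns that uses either group is independent of that choice. In icKO mice alone the log2 fold change was 3.36, as a description. In Ctrl mice alone it was 1.31 ± 0.39 (edgeR adjusted p = 0.041), with the same limit.

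Atf4 had 108, 89.4, 158 and 132 CPM in Tconv CNS icKO and 144, 93.98, 96.8 and 63.7 CPM in Tconv CNS Ctrl, against 51.1 and 54.4 CPM in Tconv dLN icKO and 61.6, 38.4 and 47.03 CPM in Tconv dLN Ctrl. Its tissues did not overlap, and the log2 fold change was 1.11 ± 0.20 (edgeR adjusted p = 0.0003). Slc3a2 had 282, 264, 296 and 319 CPM in Tconv CNS icKO and 282, 216, 205 and 181 CPM in Tconv CNS Ctrl, against 112 and 120.5 CPM in Tconv dLN icKO and 149, 117 and 129 CPM in Tconv dLN Ctrl. The tissues were separate here too, with a log2 fold change of 1.03 ± 0.16 (edgeR adjusted p = 4.3e-05). Trib3 had 11.8, 22.6, 16.8 and 20.6 CPM in Tconv CNS icKO and 10.99, 11.4, 14.1 and 6.59 CPM in Tconv CNS Ctrl, against 5.38 and 7.05 CPM in Tconv dLN icKO and 4.56, 8.44 and 9.15 CPM in Tconv dLN Ctrl. One CNS library, Tconv CNS Ctrl replicate 4, fell within the range of the node libraries, and the log2 fold change was 1.04 ± 0.30 (edgeR adjusted p = 0.014).

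Ddit3, which was higher in CNS Treg than in dLN Treg, was 17.3 to 27.4 (median 21.9) CPM in CNS Tconv and 18.9 to 25.6 (median 21.7) CPM in dLN Tconv. Its log2 fold change there was -0.02 ± 0.15 (edgeR adjusted p = 0.96). Phgdh had 125 to 171 (median 147) CPM in CNS Tconv and 121 to 172 (median 157) CPM in dLN Tconv, with a log2 fold change of -0.05 ± 0.10 (edgeR adjusted p = 0.78). Psat1, Shmt2, Mthfd2 and Slc7a5 had log2 fold changes of -0.29 ± 0.16, 0.03 ± 0.09, -0.11 ± 0.10 and 0.44 ± 0.24, and none of the 4 passed the test. Without Tconv CNS Ctrl replicate 1, the lowest of its group, Slc7a5 had a log2 fold change of 0.56 with an edgeR adjusted p of 0.049. Of 25 fits that each left out 1 library, only this one called Slc7a5 here. Beside these values, the Treg markers summed to 99.8 to 358 CPM in CNS Tconv and 46.9 to 87.8 CPM in dLN Tconv, and the CD8 T and NK cell markers to 95.8 to 171 CPM in CNS Tconv and 58.9 to 95.5 CPM in dLN Tconv, neither with overlap. Foxp3, 1 of the Treg markers, went the other way by its median. It was 0.114 to 1.53 (median 0.388) CPM in CNS Tconv and 0.574 to 1.125 (median 0.8995) CPM in dLN Tconv. The myeloid markers summed to 9.42 to 285 CPM in CNS Tconv and 76.7 to 192 CPM in dLN Tconv. The part of these transcripts in the Tconv tissue differences was not tested.

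Trib3 was the least stable of the 4. Without Tconv dLN icKO replicate 1 its adjusted p was 0.093, in Ctrl mice alone its log2 fold change was 0.55 ± 0.38 (adjusted p = 0.39), and without the 5 CNS libraries it was 0.77 ± 0.38 (adjusted p = 0.18). Without those 5 libraries, which leaves 1 Tconv CNS icKO library, Asns, Atf4 and Slc3a2 had log2 fold changes of 2.39, 1.16 and 1.10. Across all 26 libraries, 11.4% of genes and 2 members, Asns and Slc3a2, were called. In each of these settings the value of Asns uses Tconv CNS libraries that served its choice and is not independent of it.

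The tissue difference was then compared between the cell types by an interaction contrast, the CNS-minus-dLN difference in Treg minus that in Tconv. It uses the same libraries as the tissue comparisons above and is not independent of them. It was called for 4 members and for 15.1% of all genes. Ddit3 differed by 1.15 ± 0.21 (edgeR adjusted p = 0.00056), its tissue difference being larger in Treg. Psat1 differed by -1.13 ± 0.23 (edgeR adjusted p = 0.0017) and Phgdh by -0.95 ± 0.14 (edgeR adjusted p = 0.00012), both more negative in Treg. Asns differed by -1.95 ± 0.41 (edgeR adjusted p = 0.0025), its tissue difference being larger in Tconv. This value includes the Tconv CNS libraries of both genotypes on which Asns was chosen and supports nothing by itself. Atf4 (-0.23 ± 0.27), Trib3 (0.78 ± 0.40) and Slc3a2 (0.21 ± 0.21) did not pass this test, with adjusted p-values of 0.68, 0.22 and 0.59. Shmt2 lay at the threshold with -0.38 ± 0.13 (edgeR adjusted p = 0.055), and passed without any 1 of 5 libraries (Treg CNS icKO 3, Treg CNS Ctrl 3, Treg dLN icKO 1, Treg dLN Ctrl 3 or Tconv dLN Ctrl 1), with adjusted p-values of 0.039 to 0.046.

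The contrast was also taken within each genotype, in the same model of 25 libraries, and the difference between the genotypes was not tested. Asns had -0.71 ± 0.55 (edgeR adjusted p = 0.55) in Ctrl mice alone. In icKO mice alone its log2 value was -3.19 and is a description. Both genotypes hold Tconv CNS libraries that served its choice, so neither value is independent of it. Psat1 had -1.56 ± 0.34 (adjusted p = 0.0059) in icKO mice alone and -0.71 ± 0.31 (adjusted p = 0.23) in Ctrl mice alone. Without the 5 Tconv CNS libraries with the other genotype's code, the same 4 members were called. Ddit3 was called in each genotype, with 1.27 ± 0.30 (adjusted p = 0.011) in icKO and 1.03 ± 0.28 (adjusted p = 0.045) in Ctrl mice. Phgdh was too, with -1.11 ± 0.21 (adjusted p = 0.0023) in icKO and -0.79 ± 0.20 (adjusted p = 0.027) in Ctrl mice. With all 26 libraries the interaction called 4.59% of genes and 1 member, Phgdh (-1.04, adjusted p = 0.0011).

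In the node, Treg and Tconv differed in 5 members, against 23.8% of all genes called. Treg had more Asns, Psat1, Phgdh and Shmt2 and less Ddit3. These libraries also served the tissue comparisons, so the high node Treg values of Psat1 and Phgdh and the low ones of Ddit3 are the same measurements as above. Asns was 19.2 to 28.96 (median 28.5) CPM in dLN Treg and 4.30 to 8.10 (median 6.38) CPM in dLN Tconv, with no overlap and a log2 fold change of 2.04 ± 0.32 (edgeR adjusted p = 6.6e-05), a 4.12-fold difference. Psat1 was 171 to 228 (median 203) CPM in dLN Treg and 69.4 to 98.6 (median 78.9) CPM in dLN Tconv, a log2 fold change of 1.28 ± 0.18 (edgeR adjusted p = 1.3e-05). Phgdh was 285 to 359 (median 318) CPM in dLN Treg and 121 to 172 (median 157) CPM in dLN Tconv, a log2 fold change of 1.07 ± 0.11 (edgeR adjusted p = 3.2e-07). Neither gene overlapped between the cell types. Shmt2 differed by 0.35 ± 0.10 (edgeR adjusted p = 0.014) with overlap, and was not called in icKO mice alone at 0.45 ± 0.15 (adjusted p = 0.06) or in Ctrl mice alone at 0.24 ± 0.13 (adjusted p = 0.27). The other 4 were called in each genotype alone, with the counts over all genes in these settings given at the end.

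Ddit3 was 7.46 to 13.4 (median 9.01) CPM in dLN Treg and 18.9 to 25.6 (median 21.7) CPM in dLN Tconv, a log2 fold change of -1.23 ± 0.15 (edgeR adjusted p = 4.6e-06), and the cell types did not overlap. Slc7a5 was 106 to 134 (median 111) CPM in dLN Treg and 69.6 to 96.9 (median 80.03) CPM in dLN Tconv. Its libraries were also separate, but its log2 fold change of 0.46 ± 0.25 (edgeR adjusted p = 0.2) did not pass the test. In a model of the 4 node groups alone, Slc7a5 and Mthfd2 passed as well, with log2 fold changes of 0.46 ± 0.10 (edgeR adjusted p = 0.003) and 0.23 ± 0.08 (edgeR adjusted p = 0.04). The proliferation marker sum was at least 1588 CPM in dLN Treg and at most 766 CPM in dLN Tconv, and its part in the differences was not tested. Across all 26 libraries, 10.6% of genes and 3 members, Asns, Psat1 and Phgdh, were called, and the median log2 fold change of all genes was 0.14.

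In the CNS, by contrast with the 5 members called in the node, 0 of 10 members passed the test between Treg and Tconv, while 25.4% of all genes did. The unadjusted p of edgeR was under 0.05 for 0 members too, and DESeq2 and limma each called 0. With all 26 libraries 0 members and 11.7% of genes were called. Without the 5 Tconv CNS libraries the count was 0 as well. All 10 had log2 fold changes with 2-SE intervals that include 0. For Phgdh the interval ran from -0.07 to 0.31, for Psat1 from -0.16 to 0.45, for Asns from -0.43 to 0.62, for Atf4 from -0.70 to 0.02 and for Trib3 from -0.06 to 0.99. Shmt2 was 85.3 to 131 (median 106) CPM in CNS Treg and 97.2 to 134 (median 109) CPM in CNS Tconv. The myeloid and microglial markers summed to 3440 to 5573 CPM in CNS Treg and 9.42 to 285 CPM in CNS Tconv. Their part in this comparison was not tested. Asns was split by genotype in this comparison. In icKO mice alone its log2 fold change was -0.98, as a description, and in Ctrl mice alone it was 1.17 ± 0.37 (edgeR adjusted p = 0.032). Asns was chosen by comparing the Tconv CNS libraries of these genotypes, so neither value is independent of the choice.

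**Figure D3:**
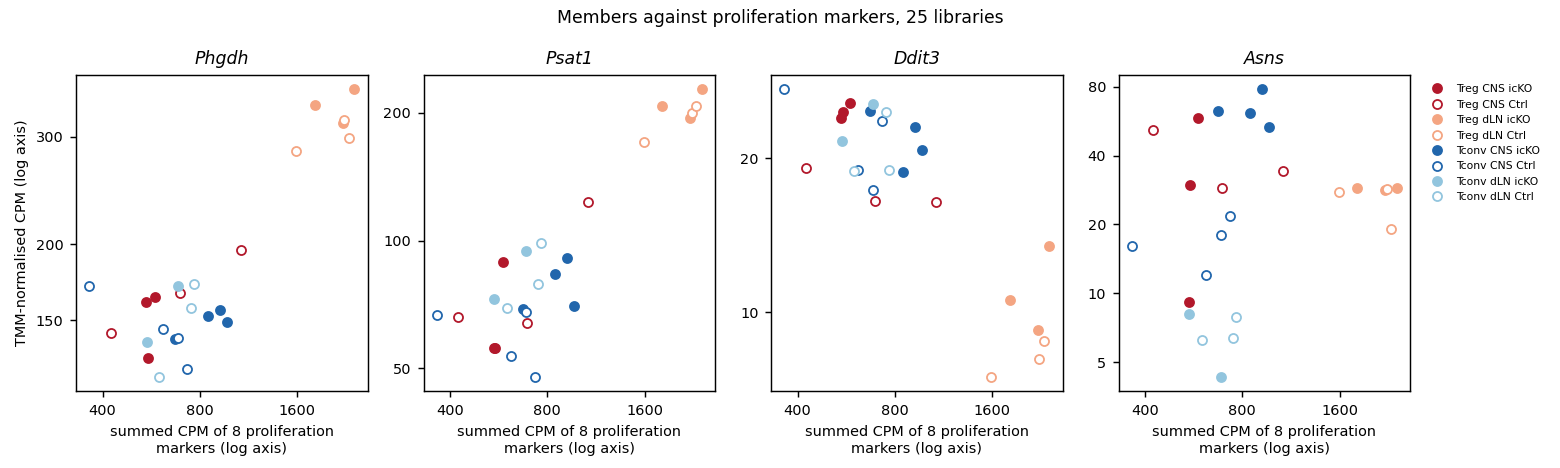
Level of Phgdh, Psat1, Ddit3 and Asns (vertical axis, TMM-normalised CPM, log axis) against the summed level of 8 proliferation markers (horizontal axis, log axis) in 25 libraries, filled for icKO and open for Ctrl. The 6 dLN Treg libraries form a separate cluster at 1588 CPM of markers or more, with the highest Phgdh and Psat1 and the lowest Ddit3.

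Deletion of Tnfrsf1b in Treg was compared with Ctrl in each population. In the 3 comparisons that can be tested, 0 of 10 members passed, and 0% of the 13500 genes did. The targeted gene Tnfrsf1b was thus not called either. Its mean was 406 CPM in Treg CNS icKO and 610 CPM in Treg CNS Ctrl, and 619 CPM in Treg dLN icKO and 795 CPM in Treg dLN Ctrl. Unadjusted p-values below 0.05 were found for 915 genes in Treg CNS, 146 in Treg dLN and 197 in Tconv dLN. The DESeq2 Wald test called 7, 2 and 2 genes and limma voom 0, 1 and 0 in these comparisons, none of them a member. Among members, the unadjusted p of edgeR was under 0.05 for Ddit3 in Treg CNS and in Treg dLN, and for 0 of 10 in Tconv dLN. With all 26 libraries edgeR called 0 members and 0% of genes in each.

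In Treg CNS, Ddit3 had 24.7, 23.96 and 25.7 CPM in icKO and 16.5, 19.2 and 16.4 CPM in Ctrl libraries, with a log2 fold change of 0.51 ± 0.21 (edgeR adjusted p = 0.69). In Treg dLN it had 10.6, 13.4 and 9.24 CPM in icKO and 8.11, 7.46 and 8.79 CPM in Ctrl libraries, with a log2 fold change of 0.45 ± 0.21 (edgeR adjusted p = 1). The 2-SE intervals of Ddit3, not adjusted for the number of genes, ran from 0.10 to 0.93 in Treg CNS and from 0.03 to 0.87 in Treg dLN. Asns had 29.9, 9.12 and 58.5 CPM in icKO and 28.9, 51.5 and 34.3 CPM in Ctrl libraries of Treg CNS, with an interval from -1.03 to 0.56. Atf4 had an interval from -0.11 to 0.97 in Treg CNS and from -0.49 to 0.60 in Treg dLN. Shmt2 had the interval -0.54 to -0.01 in Treg CNS, where Psat1 had -0.79 to 0.12. The 6 CD8 T and NK cell markers summed to 271 to 616 CPM in Treg CNS icKO and 128.5 to 168 CPM in Treg CNS Ctrl libraries, and their part in these values was not tested.

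In Treg dLN the intervals of Phgdh and Psat1 ran from -0.12 to 0.45 and from -0.33 to 0.57, and 8 of 10 members had positive log2 fold changes, with a median of 0.09 over the members and 0.00 over all genes. In Tconv dLN the members had log2 fold changes from -0.25 ± 0.46 (Trib3) up to 0.18 ± 0.23 (Ddit3), from 2 icKO and 3 Ctrl libraries. With the third icKO library the median of all genes moved to -0.36 and that of the members to -0.25. Psat1 was then at 0.70 and Trib3 at -0.82.

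**Figure D4:**
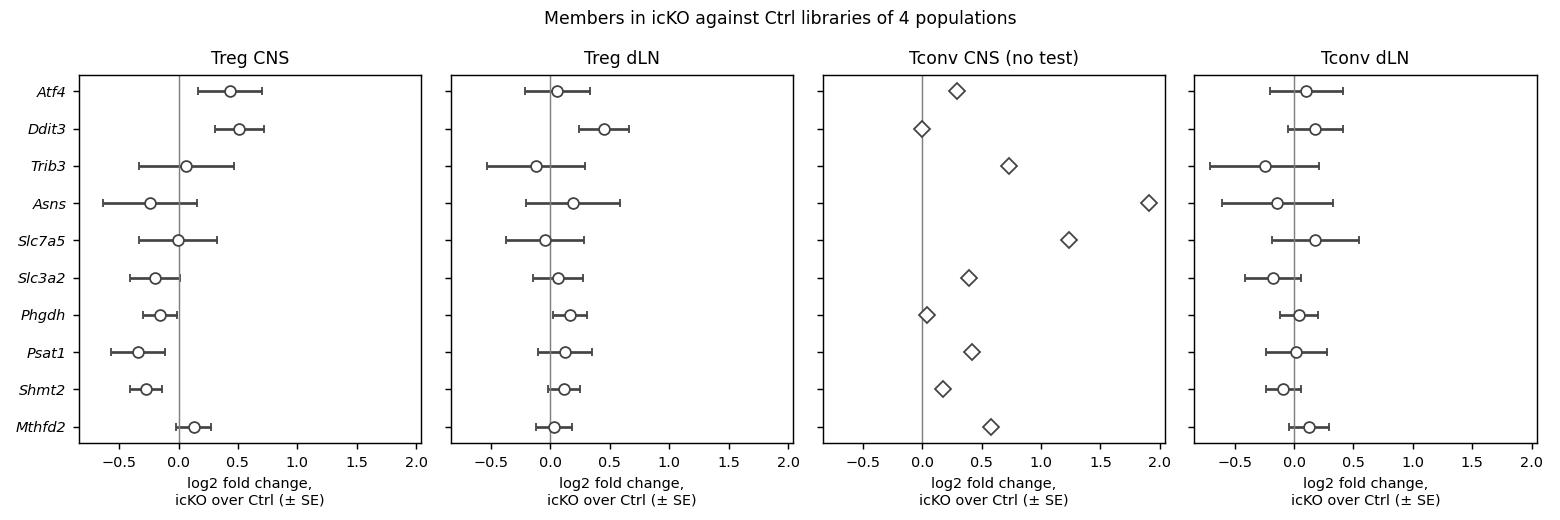
Log2 fold change of each member, icKO over Ctrl, with SE where tested (horizontal axis), in 4 populations. None passed an adjusted p of 0.05 in Treg CNS, Treg dLN or Tconv dLN. In Tconv CNS, shown without SE because Asns was chosen there, Asns was at 1.91 and Slc7a5 at 1.24.

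Tconv CNS libraries are the ones on which Asns was chosen, and the following is a description. The mean level of Asns was 63.98 ± 10.4 CPM in the icKO group, against 16.99 ± 4.08 CPM in the Ctrl group (SD, n = 4 each), a log2 fold change of 1.91. Every icKO library was above every Ctrl library, with the per-library values given above. Slc7a5 had 159, 141, 192 and 201 CPM in icKO and 34.0, 64.8, 81.95 and 114 CPM in Ctrl libraries, also without overlap, and a log2 fold change of 1.24. The Ctrl libraries of Slc7a5 were themselves spread over more than 3-fold. Mthfd2 had 113, 92.6, 128 and 112 CPM in icKO and 72.7, 64.99, 71.9 and 89.2 CPM in Ctrl libraries, a log2 fold change of 0.58. Psat1 had 83.5, 70.3, 91.04 and 69.05 CPM in icKO and 66.8, 47.7, 53.4 and 67.8 CPM in Ctrl libraries, a log2 fold change of 0.41 with the groups nearly touching.

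These 4 of 10 members had all icKO above all Ctrl libraries, 0 had all below, and 6 overlapped. Asns was chosen for this difference, so its place in this count and in the member median supports nothing. Of all genes, 4.86% had all icKO above all Ctrl libraries. Trib3 (0.73), Slc3a2 (0.39), Atf4 (0.29), Shmt2 (0.18), Phgdh (0.04) and Ddit3 (0.00) were the overlapping members, in order of log2 fold change. The median was 0.40 over the members and 0.00 over all genes. Without the 5 libraries whose file names carry the other genotype, 1 icKO and 2 Ctrl libraries remained. Asns was then at 1.71, Slc7a5 at 1.70, Mthfd2 at 0.72 and Psat1 at 0.56, while Slc3a2 was at 0.19, Trib3 at 0.09, Shmt2 and Phgdh at 0.06, Atf4 at -0.13 and Ddit3 at -0.42. The 1 icKO library was above both Ctrl libraries for 6 members, the 4 above and Trib3 and Shmt2, and for 37.1% of all genes. In these groups the 4 Treg markers (Foxp3, Il2ra, Ikzf2 and Ctla4) summed to 190 to 358 CPM in icKO, against 99.8 to 142 CPM in Ctrl libraries. The proliferation markers summed to 671 to 968 CPM in icKO, against 364.5 to 732 CPM in Ctrl libraries. Foxp3 itself was 0.114 to 0.397 CPM in icKO, against 0.379 to 1.53 CPM in Ctrl libraries. The part of these transcripts in the member values was not tested.

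Other genes of the pathway were taken from 8 lists with 72 genes that passed the filter, none of them a member. In the Tconv CNS genotype comparison, 13 of the 72 (18.1%) had all icKO above all Ctrl libraries, against 4.86% of all genes, and 6 of the 13 were among the 13 cytosolic aminoacyl-tRNA synthetase genes with Xpot (Aars, Gars, Mars, Nars, Tars and Yars). These enzymes charge transfer RNAs with amino acids. Aars was 164 to 207 CPM in icKO, against 94.0 to 132 CPM in Ctrl libraries. Without the 5 libraries the remaining 1 icKO library was above both Ctrl libraries for 39 of the 72 (54.2%) and for 37.1% of all genes. Aars was then 205 CPM in the icKO library, against 94.0 and 123 CPM in the Ctrl libraries. The 6 genes were named after their values were seen, and the comparison carries no test here.

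Between tissues, 35 of the 72 genes were called in Treg, 18 higher and 17 lower in the CNS, and 29 in Tconv, 21 higher and 8 lower, against 39.9% and 25.2% of all genes. Between Treg and Tconv, 18 were higher and 4 lower in CNS Treg, and 17 were higher and 2 lower in dLN Treg, against 25.4% and 23.8% of all genes called in either direction. The interaction was higher for 1 and lower for 7, against 15.1% of all genes called, and 0 of the 72 were called between genotypes in the tested populations. Without Tconv dLN icKO replicate 1, 17 of the 72 were called between tissues in Tconv and 5 in the interaction, and without its replicate 2 the interaction called 5. Ppp1r15a, the phosphatase subunit that reverses eIF2 phosphorylation, was 78.2 to 237 CPM in CNS Treg and 15.2 to 19.4 CPM in dLN Treg, and the log2 difference was 2.77 ± 0.28 (adjusted p = 1.7e-07). In Tconv it was 52.02 to 153 CPM in the CNS and 17.9 to 30.7 CPM in the node, a log2 fold change of 1.82 ± 0.28 (adjusted p = 5.6e-05). Among the 6 partner and stress transcription factors, 4 were higher in CNS Treg and 3 in CNS Tconv, and none was called lower.

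Cebpb, a C/EBP partner of ATF4, was 156 to 597 CPM in CNS Treg and 25.9 to 33.5 CPM in dLN Treg (log2 fold change 3.53 ± 0.25, adjusted p = 2e-09), and 34.4 to 77.5 CPM in CNS Tconv and 19.2 to 25.8 CPM in dLN Tconv (log2 fold change 1.29 ± 0.25, adjusted p = 0.00054). It was the 1 listed gene called as higher in the interaction, by 2.24 ± 0.33 (adjusted p = 8.3e-05) log2. Cebpb is also abundant in myeloid cells, whose markers were highest in CNS Treg, and their part was not tested. Atf3, a stress-induced repressor, was 8.91 to 57.9 CPM in CNS Treg and 0 to 1.31 CPM in dLN Treg. It was 0 to 13.7 CPM in CNS Tconv and at most 0.0686 CPM in dLN Tconv, so no fold is given.

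Stress-induced targets were mixed: of 7 tested, 3 were called higher and 2 lower in CNS Treg, and 2 higher and 1 lower in CNS Tconv. Eif4ebp1, a translation repressor, and Ndrg1, a stress-response gene, were higher in the CNS in both cell types. Eif4ebp1 had log2 fold changes of 1.30 ± 0.16 (adjusted p = 3e-06) in Treg and 1.13 ± 0.17 (adjusted p = 4.6e-05) in Tconv, and Ndrg1 of 1.16 ± 0.22 (adjusted p = 0.0003) in Treg and 1.07 ± 0.23 (adjusted p = 0.0017) in Tconv. Ddit4, an mTORC1 inhibitor, was lower in CNS Tconv at 49.5 to 124 CPM than in dLN Tconv at 164 to 211 CPM (log2 fold change -0.93 ± 0.18, edgeR adjusted p = 0.00046). In Treg it was also called lower in the CNS, with a log2 fold change of -0.52, as was Sesn2 with -0.94.

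Of 11 other amino acid synthesis and folate genes, 5 were lower and 2 higher in CNS Treg, and 3 were lower and 2 higher in CNS Tconv. Mthfd1, the cytosolic folate enzyme, was 38.9 to 75.5 CPM in CNS Treg and 109 to 145 CPM in dLN Treg (log2 fold change -1.36 ± 0.15, adjusted p = 5.7e-07). Mthfd1l, its mitochondrial relative, was 34.2 to 47.7 CPM in CNS Treg and 91.6 to 106 CPM in dLN Treg (log2 fold change -1.35 ± 0.15, adjusted p = 7.4e-07). Shmt1, the cytosolic counterpart of Shmt2, was 6.76 to 26.6 CPM in CNS Treg and 49.01 to 64.6 CPM in dLN Treg (log2 fold change -2.31 ± 0.27, adjusted p = 1.3e-06). The tissue difference of these 3 genes was more negative in Treg than in Tconv, with interactions of -0.68 ± 0.21 (adjusted p = 0.031), -0.84 ± 0.21 (adjusted p = 0.0095) and -1.27 ± 0.37 (adjusted p = 0.024) by edgeR. Without the 5 Tconv CNS libraries the interaction of Mthfd1l remained called (adjusted p = 0.0044), and those of Mthfd1 and Shmt1 did not pass, at -0.51 ± 0.21 (adjusted p = 0.13) and -0.93 ± 0.40 (adjusted p = 0.14).

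Of the transfer RNA synthetase list, 8 of 13 were higher and 1 lower in CNS Tconv, and 3 were higher and 4 lower in CNS Treg. In Tconv, Gars and Nars had log2 fold changes of 0.41 ± 0.08 (adjusted p = 0.00061) and 0.40 ± 0.08 (adjusted p = 0.0011), and in Treg Nars had 0.56 ± 0.08 (adjusted p = 1.6e-05). Among transporters, Slc1a5, which carries glutamine, was higher in CNS Tconv at 186 to 318 CPM than in dLN Tconv at 122 to 159 CPM (log2 fold change 0.80 ± 0.13, adjusted p = 9.7e-05). Slc38a1, another glutamine transporter, was lower in the CNS in both cell types, with log2 fold changes of -0.90 ± 0.14 (adjusted p = 4e-05) in Treg and -0.66 ± 0.14 (adjusted p = 0.0012) in Tconv. Myc was lower in the CNS in Treg (log2 fold change -0.50 ± 0.12, adjusted p = 0.0025) and in Tconv (log2 fold change -0.36 ± 0.12, adjusted p = 0.034), and Xbp1, an effector of the unfolded protein response, was higher in both (1.18 in Treg and 0.92 in Tconv). Xbp1 was the 1 of 14 ER chaperone and unfolded protein response genes called in Treg, and 4 of 14 were higher and 1 lower in Tconv. Without the 5 Tconv CNS libraries, each pathway gene given a Tconv tissue fold change above kept its sign, for example Ppp1r15a at 1.74 and Myc at -0.51. That setting leaves 1 Tconv CNS icKO library. Among called genes not printed above, Dnajb11 moved from 0.32 to 0.14 and Cars from 0.66 to 0.60, while Got1 moved from 1.14 to 1.23. The list counts for Tconv rest on all 25 libraries and are not given without the 5. Across all 26 libraries, 14 of the 72 genes were called in each cell type.

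**Figure D5:**
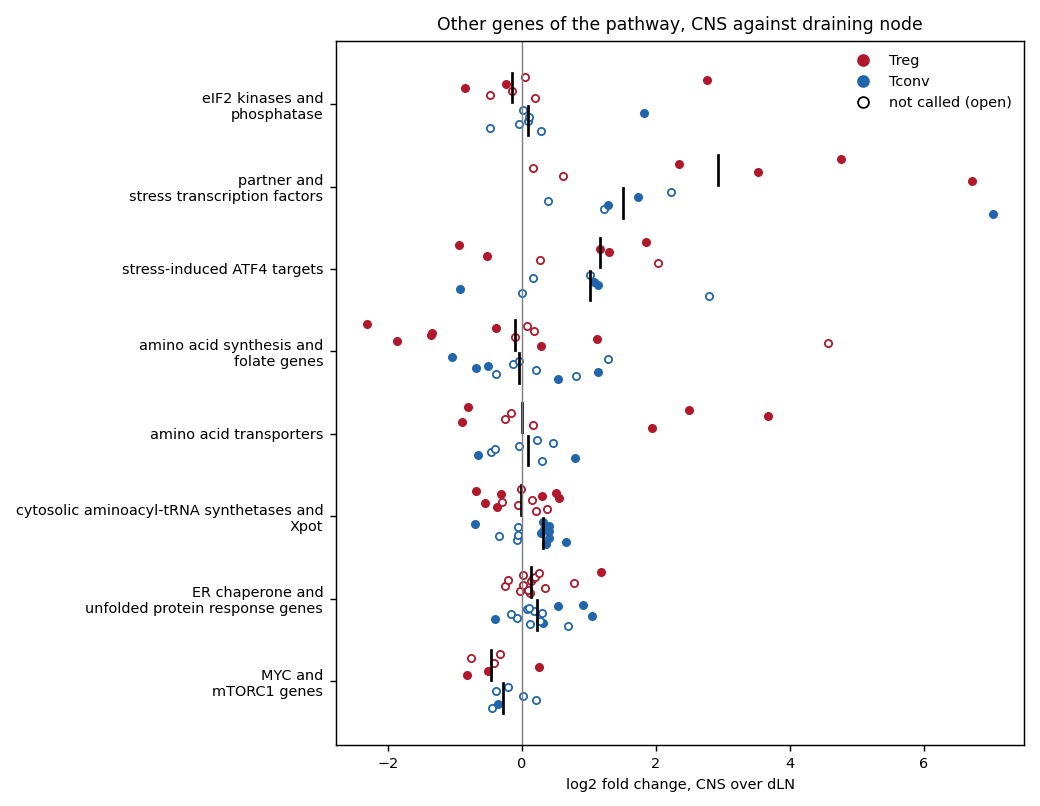
Log2 fold change, CNS over dLN, mean of both genotypes (horizontal axis), of 72 further pathway genes in 8 lists (vertical axis), in Treg and below it in Tconv. Points are genes, filled where called, and black bars are list medians. Stress transcription factors had medians of 2.94 in Treg and 1.52 in Tconv, and the transfer RNA synthetases -0.01 in Treg and 0.31 in Tconv.

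Pearson correlations of log2 CPM over the 25 libraries describe how the members varied together, and they carry the differences between the 4 populations as well as those within them. The 45 pairs ranged from -0.84 to 0.95 with a median of 0.25, and 18 were below 0. Psat1 and Phgdh were the most alike (0.95), and Trib3 and Slc3a2 (0.867) and Atf4 and Slc3a2 (0.866) came next. Ddit3 and Phgdh were the most opposed (-0.84). Outside the list, the genes with an average of 10 CPM or more that were most like the mean of the members were Map2k3 (0.904), Pgk1 (0.882), Tpm4 (0.877), Tpi1 (0.870), Gapdh (0.868), Ldha (0.858), Hif1a (0.852), Pgam1 (0.846), Map3k8 (0.845) and Adam19 (0.844). Pgk1, Tpi1, Gapdh, Ldha and Pgam1 encode enzymes of glycolysis and lactate production. For Asns alone they were Ttc39c (0.922), Prnp (0.918), Tpi1 (0.903), Il12rb1 (0.902) and Map2k3 (0.901). The 25 libraries include the Tconv CNS libraries on which Asns was chosen, so these rankings are not independent of that choice.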

How the data were processed

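Polyadenylated RNA of sorted Treg and Tconv was made into SMART-Seq v4 and Nextera libraries, per the labels' protocols. Per the submitters' processing notes, the authors used FastQC, Trimmomatic, STAR 2.5.3a, RSEM 1.2.28 and mm10. The deposited tables hold expected counts per gene and the authors' TPM and FPKM values, which are scaled to gene length and library total. TPM is used for levels between genes, and FPKM is not used. The kit does not mark strand, so reads of overlapping antisense genes cannot be told apart.

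Expected counts were rounded, scaled with TMM and filtered with filterByExpr (13500 genes, 25 libraries). They were fitted with edgeR 4.0.16 (R 4.3.3) as 8 group means in a quasi-likelihood model, and a gene was called at a Benjamini-Hochberg adjusted p under 0.05 over all genes. SE is the log2 fold change over the root of F. Tissue and cell type contrasts average icKO and Ctrl. The fit was also run on simulated data with set fold changes, and no result given here rests on that run. Alternatives were all 26 libraries, DESeq2 1.42.0 (size factors and Wald test), limma 3.58.1 voom, other filters and compared groups alone. Further ones were contrasts within 1 genotype alone from the main fit, a replicate block and leaving out libraries. Python 3.11.15, pandas 2.3.3, numpy 2.4.6 and matplotlib 3.10.9 made summaries and plots. Log2 CPM for correlations used a pseudocount of 2.

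Members, lists and tests were chosen with earlier results of these data known. Named are all members, up to 3 called genes with the smallest p per list and tested comparison (a selection is printed), and the 10 genes most like the members' mean and 5 most like Asns with a mean of at least 10 CPM. The lists of B cell, neural and other cell markers were also summed: B cell markers reached at most 119 CPM and neural markers 158 to 354 CPM, the latter in node libraries as well.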

Additional observations from a re-analysis of the deposited data

Results flagged for a closer look

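The difference between tissues was not the same in Treg and Tconv for 4 members, by the interaction test in edgeR. Asns differed by -1.95 log2 (adjusted p = 0.0025), Ddit3 by 1.15 (adjusted p = 0.00056), Psat1 by -1.13 (adjusted p = 0.0017) and Phgdh by -0.95 (adjusted p = 0.00012), each as Treg minus Tconv. The value of Asns includes the Tconv CNS libraries of both genotypes on which Asns was chosen, so it is no independent result. In Ctrl mice alone, which hold part of these libraries, it was -0.71 (edgeR adjusted p = 0.55). In Ctrl mice alone, Ddit3 and Phgdh passed the same test and Psat1 did not (-0.71, adjusted p = 0.23). Whether the genotypes differed in this was not tested.

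In the Tconv CNS groups of 4 libraries, 20 combinations of member and group were searched for a single library far from the others, and 0 were found.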

How the results depend on the processing

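The number of members called was stable to the scaling, the low-count filters, the DESeq2 Wald test and limma voom in all 8 tested comparisons, within 1.5 times of the reported count. It moved with the set of libraries. With all 26 libraries it was 4 in place of 7 for Treg between tissues, 2 in place of 4 for Tconv between tissues, 3 in place of 5 for Treg against Tconv in the node, and 1 in place of 4 for the interaction. In Ctrl mice alone it was 1 in place of 0 for Treg against Tconv in the CNS (Asns) and 2 in place of 4 for the interaction. These contrasts hold fewer samples, and the call of Asns uses Tconv CNS Ctrl libraries that served its choice. Leaving out 1 library at a time gave 7 to 8 members for Treg between tissues, 3 to 5 for Tconv, 5 for the node, 4 to 5 for the interaction and 0 for the CNS comparison and the 3 genotype comparisons.

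In Tconv CNS the median member log2 fold change, icKO over Ctrl, was 0.40, and 0.14 without the 5 libraries whose file names carry the other genotype, which leaves 1 icKO library. The cause was not tested. That setting was added after seeing the data for the counts of genes with all icKO above all Ctrl libraries and for the named pathway genes. Leaving out 1 library gave 0.36 to 0.53.

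Counts over all genes moved by more than 1.5 times in these cases. They were, with all 26 libraries, 2276 in place of 5389 for Treg and 1483 in place of 3396 for Tconv between tissues, 1522 in place of 3431 for the CNS, 1386 in place of 3217 for the node and 599 in place of 2044 for the interaction. In icKO mice alone they were 3035, 1905, 1698, 1338 and 1118 in the same order. In Ctrl mice alone they were 2943 for Treg and 1202 for Tconv between tissues, 1556 for the node and 495 for the interaction. The node count was 5601 by limma and 5183 in the node groups alone, and the CNS count 2213 without the 5 libraries. In Tconv dLN between genotypes the compared groups alone called 1 gene in place of 0, and 13 genes were called in Treg CNS without icKO replicate 1 and 1 in Treg dLN without icKO replicate 1. Without Tconv dLN icKO replicate 1, which leaves 1 library in its group that is assumed to vary like the others, the counts were 1998 for Tconv between tissues and 2097 for the node.

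Of the 72 further pathway genes, that setting called 17 in Tconv between tissues and 5 in the interaction, and leaving out Tconv dLN icKO replicate 2 called 5 in the interaction. In icKO mice alone the counts were 20 for Treg and 15 for Tconv between tissues, 9 for the CNS, 8 for the node and 4 for the interaction. In Ctrl mice alone they were 17 for Treg and 8 for Tconv between tissues, 4 for the node and 1 for the interaction. They were 14, 14, 10, 10 and 1 with all 26 libraries, in the order Treg, Tconv, CNS, node and interaction. The node count was 33 by limma and 37 in the node groups alone, and the CNS count 14 without the 5 libraries.

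As a check on pairing by replicate number, deviations from the group means correlated at -0.145 to 0.113 in 34 same-numbered pairs, and 3 exceeded 0.1. Pairs with different numbers were not compared, so whether samples shared a mouse cannot be told from these values. With the replicate block, members called were 8 in place of 7 for Treg between tissues, 4 for Tconv, 5 for the node, 4 for the interaction and 0 for the others, and the median in Tconv CNS was 0.41.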
